A study of Mus musculus with 12 samples.

Results

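The genes described here are 39 interferon-stimulated antiviral genes of the mouse, chosen by a list of symbols of genes known to be induced by interferon, with no threshold on their values. The list was chosen with earlier results of these data known. All 39 symbols were found among the 24098 genes of the expression table, and none was missing. An FPKM (a fragment count scaled to transcript length and to the mapped fragments of the library) of at least 1 in at least 1 of the 12 libraries was reached by 36 of the 39, as it was by 14178 genes of the table, which are called kept genes. The remaining 3, Tlr3, Mx1 and Samd9l, stayed below 1 FPKM in every library.

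Polyadenylated RNA was sequenced at intervals while mouse embryonic fibroblasts (MEFs) were reprogrammed to pluripotency, with 1 library for each of 12 conditions. The MEFs came from embryos that carry an EGFP reporter behind Oct4, and D0 is the unsorted day 0 sample, which the labels call wild type. D3 is the unsorted culture on day 3 after retroviral pMXs vectors had delivered Oct4, Sox2, Klf4 and c-Myc (OSKM). On days 6 and 9 the infected culture was sorted on Thy-1, a surface protein of fibroblasts, into D6T-, D6T+, D9T- and D9T+, and on days 12 and 16 it was sorted on the pluripotency-associated carbohydrate SSEA-1 into D12S+, D12S-, D16S+ and D16S-. The Thy-1- and SSEA-1+ cells are the fractions on the way to pluripotency, and the Thy-1+ and SSEA-1- cells are those left behind. The end points were established iPSCs and the ES-D3 line of mouse embryonic stem cells, written mESCs. The labels give for both the reprogramming medium, which holds LIF, ascorbic acid, bFGF and CHIR99021, while the methods of the study name other media for them. MEFs were grown in serum medium, and whether the D0 cells had already met virus or the new medium is not given in the sources used here. Effects of viral infection, the change of medium and OSKM expression on D3 against D0 cannot be told apart. The sorting marker changed between days 9 and 12, and the marker and the day cannot be told apart either. With 1 library in each condition no difference given here has a replicate check or a test. In these bulk samples, fewer cells that express a gene and less of its RNA in each cell cannot be told apart.

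Interferons are secreted proteins that cells release when they sense foreign nucleic acid. Type I interferons bind the IFNAR receptor, whose kinases phosphorylate STAT proteins, and STAT2 joins IRF9 in the complex ISGF3, which enters the nucleus and binds the interferon-stimulated response element (ISRE) in target promoters. Interferon gamma acts through another receptor and through the gamma-activated sequence (GAS). The induced genes encode nucleic acid sensors, enzymes that degrade viral RNA or halt translation, and membrane proteins that block entry or release of virions. Many cells hold these genes at a low tonic level without infection, and embryonic stem cells are known to respond weakly to interferon.

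The 5 promoter stretches that follow show where the 2 elements lie in 5 of the members whose promoter holds a match. They are RefSeq sequences of the GRCm38.p6 build, the 160 bases just before the annotated transcript start, written 5′ to 3′ on the gene's strand. Capitals mark matches to the ISRE core GAAANNGAAA on either strand (TTTCNNTTTC on the other), with overlapping matches run together, and in Irf1 the match to the GAS pattern TTCNNNGAA, which reads alike on both strands. The GAS match of Bst2, 136 bases before the start, overlaps the first of its ISRE matches and is not marked. The stretch of Isg15 is chr4:156200819-156200978, minus strand, that of Ifit1 chr19:34640729-34640888, plus strand, that of Ifit3 chr19:34583369-34583528, plus strand, that of Bst2 chr8:71537473-71537632, minus strand and that of Irf1 chr11:53769854-53770013, plus strand.
Isg15: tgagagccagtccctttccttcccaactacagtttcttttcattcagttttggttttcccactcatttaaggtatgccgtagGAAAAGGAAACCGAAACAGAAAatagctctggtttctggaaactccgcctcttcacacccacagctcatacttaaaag
Ifit1: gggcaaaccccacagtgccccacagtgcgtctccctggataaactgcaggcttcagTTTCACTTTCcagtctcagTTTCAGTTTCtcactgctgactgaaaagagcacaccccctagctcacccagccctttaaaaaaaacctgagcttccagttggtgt
Ifit3: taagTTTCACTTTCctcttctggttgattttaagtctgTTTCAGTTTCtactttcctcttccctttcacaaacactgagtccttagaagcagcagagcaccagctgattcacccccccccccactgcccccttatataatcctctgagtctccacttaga
Bst2: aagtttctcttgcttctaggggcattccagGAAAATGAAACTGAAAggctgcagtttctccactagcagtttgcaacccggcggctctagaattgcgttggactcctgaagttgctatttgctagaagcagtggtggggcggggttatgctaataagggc
Irf1: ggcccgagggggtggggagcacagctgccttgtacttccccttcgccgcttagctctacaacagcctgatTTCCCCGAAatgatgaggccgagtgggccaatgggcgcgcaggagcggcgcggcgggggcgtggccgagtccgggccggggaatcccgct
Isg15 carried 3 overlapping ISRE core matches and Bst2 2, while Ifit1 and Ifit3 each carried 2 that lay apart. A promoter entry was found for 29 of the 39 members. Within 250 bases before the start, the ISRE core was present in 9 of these 29 (31.0%), namely Stat2, Oas1a, Oas3, Ifit1, Ifit3, Rsad2, Isg15, Bst2 and Cxcl10, and in 936 of 27025 genes with an entry (3.46%). The GAS pattern was present in 5 of the 29 (17.2%), namely Irf1, Oas1a, Eif2ak2, Ifit2 and Bst2, and in 2197 of the 27025 genes (8.13%). A match of letters is a description and not a bound site.

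Depth and cell identity were examined once for the whole set. The depth of the libraries relative to D0, read from the steps between low values, lay between 0.966 and 1.56, and the total FPKM between 484968 and 648264. The summed FPKM of 12 fibroblast genes was 8103 in D0 and 2114 in D3. In the Thy-1- and SSEA-1+ fractions of days 6, 9, 12 and 16 it was 468, 387, 275 and 39.1, against 3141, 2538, 751 and 499 in their partners, and in iPSCs and mESCs it was 61.9 and 62.7. The sum of 10 pluripotency genes was lowest in D0 at 19.7 and highest in D16S+ at 6074. The sum of 11 leukocyte genes ranged from 13.8 in D6T- to 137 in D16S-, where Cd68 made up 115 and Csf1r 19.9, while the pan-leukocyte gene Ptprc was at or below 0.425 FPKM in every library. Positions of genes below are those of the GENCODE annotation of mm9, the build of the deposited table.

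Over the set, the level was high in MEFs, low on day 3, higher again in the sorted libraries and low in pluripotent cells. Every one of the 39 was lower in D3 than in D0, as were 51.8% of all kept genes. The median of the 36 kept members was 19.5 FPKM in D0 and 1.40 in D3, then 3.30 in D6T- and 7.74 in D6T+, 9.61 in D9T- and 14.4 in D9T+, 13.5 in D12S+ and 24.3 in D12S-, 12.2 in D16S+ and 29.2 in D16S-, and 1.62 in iPSCs and 0.727 in mESCs. As log2(FPKM + 1), the median of these members went from 0.77 in mESCs to 4.91 in D16S-, while that of all kept genes stayed between 2.98 and 3.17.

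**Figure D1:**
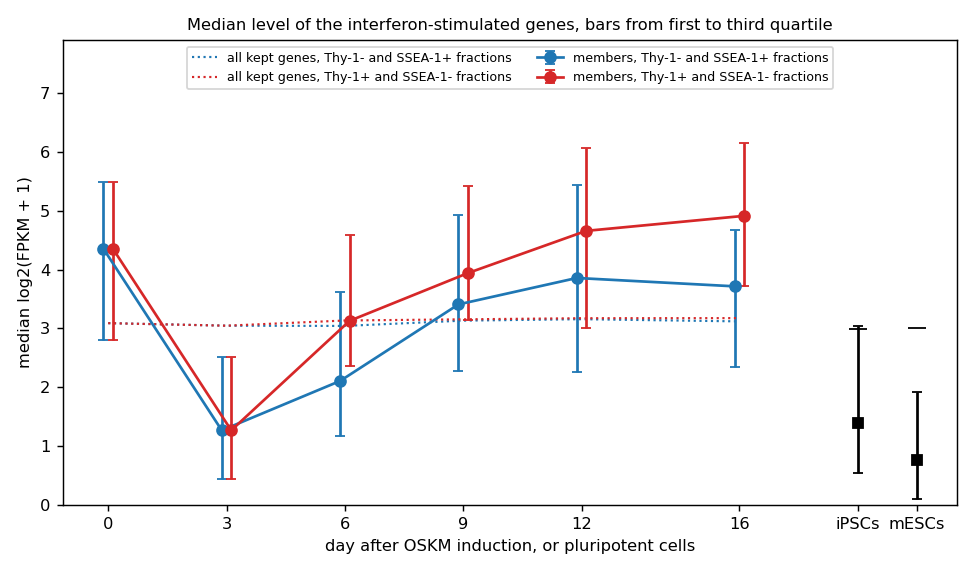
Median log2(FPKM + 1) of the 36 kept members by day of reprogramming, with bars from the first to the third quartile, for the Thy-1- and SSEA-1+ fractions (blue) and the Thy-1+ and SSEA-1- fractions (red), both starting from the unsorted D0 and D3, and for iPSCs and mESCs (black squares). Dotted lines and black dashes give the median of all kept genes. The members' median was 4.35 in D0 and 1.26 in D3, and on each sorted day the red point lies above the blue one.

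The position of each library in the order differed between members. The highest value lay in D0 for 17 members and in D16S- for another 17, and in D9T+ for 2, D12S- for 2 and D6T+ for 1. The lowest value lay in mESCs for 21 members, in D3 for 13 and in iPSCs for 5. The number of members at or above 1 FPKM was 36 in D0, 21 in D3, 36 in D16S-, 21 in iPSCs and 18 in mESCs. These counts were not made over all kept genes, so they only describe the members. In the genome 15 of the 39 lie within 200 kb of another member, in the Oas and Oasl clusters, the Ifit and Mx clusters, the Rsad2 and Cmpk2 pair and the Parp9, Dtx3l and Parp14 group. The members thus had no single profile, and they are taken up below by role.

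**Figure D2:**
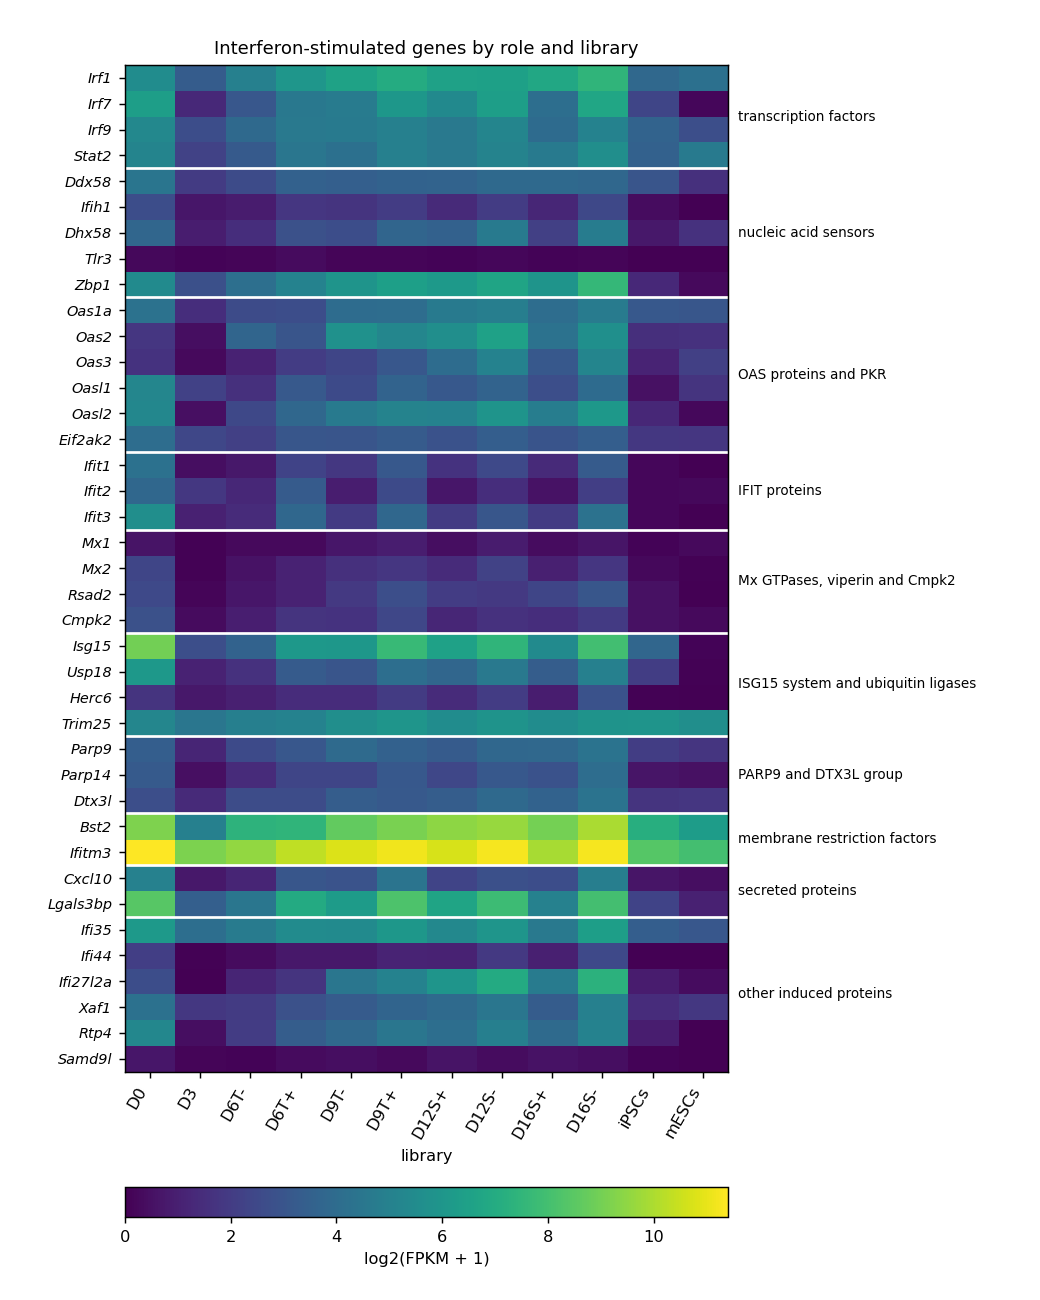
Level of the 39 members (rows, grouped by role) in the 12 libraries (columns), coloured by log2(FPKM + 1). The D3, iPSCs and mESCs columns are darker than the D0 column in nearly every row, the 2 membrane restriction factors are the brightest rows, and Trim25 has nearly the same colour throughout.

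Among the transcription factors that carry the response, Irf7 and Irf1 varied most. Irf7, the factor that amplifies type I interferon production (chr7:148448605-148452380, minus strand), was at 83.4 FPKM in D0 and 1.51 in D3, 7.67 in D6T- and 23.03 in D6T+, 25.8 in D9T- and 63.9 in D9T+, 41.3 in D12S+ and 83.5 in D12S-, 16.3 in D16S+ and 108 in D16S-, and 4.24 in iPSCs and 0.138 in mESCs. Its level in D3 was 1 of the lowest 2, D12S- was close to D0, and D16S- exceeded it. The locus overlaps Phrf1 on the opposite strand, and use of strand in counting was not stated. Irf1, a factor induced by interferon gamma with the GAS match printed above (chr11:53583516-53591876, plus strand), was at 45.8 FPKM in D0 and 9.03 in D3, 30.0 in D6T- and 62.3 in D6T+, 94.4 in D9T- and 129 in D9T+, 91.4 in D12S+ and 87.4 in D12S-, 114 in D16S+ and 174 in D16S-, and 13.6 in iPSCs and 17.6 in mESCs. It exceeded D0 in all 7 sorted libraries from D6T+ onwards and was close between the fractions of day 12. Irf9 and Stat2, the DNA-binding and the transactivating subunit of ISGF3, ranged from 5.54 in D3 to 38.8 in D0 and from 3.76 in D3 to 48.8 in D16S-, and Stat2 held 24.2 FPKM in mESCs against 10.8 in iPSCs. Irf9 overlaps Rnf31 on the same strand, which leaves its level uncertain.

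Among the nucleic acid sensors, Zbp1 and Dhx58 varied most. Zbp1, a sensor of Z-form nucleic acid (chr2:173032113-173044424, minus strand), was at 43.1 FPKM in D0 and 5.97 in D3, 16.9 in D6T- and 32.0 in D6T+, 58.7 in D9T- and 84.8 in D9T+, 70.4 in D12S+ and 101 in D12S-, 58.8 in D16S+ and 191 in D16S-, and 1.51 in iPSCs and 0.211 in mESCs. It was above its D0 level in both fractions from day 9 to day 16 and had its highest value in D16S-, with its lowest in the pluripotent cells. Dhx58, which encodes LGP2, a regulator of the RIG-I-like receptors (chr11:100556018-100565585, minus strand), was at 12.6 FPKM in D0 and 0.909 in D3, 1.83 in D6T- and 6.03 in D6T+, 5.52 in D9T- and 12.1 in D9T+, 10.5 in D12S+ and 24.8 in D12S-, 3.44 in D16S+ and 26.4 in D16S-, and 0.685 in iPSCs and 2.06 in mESCs. Its SSEA-1+ or Thy-1- fraction was the lower one on all 4 sorted days. Ddx58, the RNA sensor RIG-I, ranged from 1.99 in mESCs to 20.5 in D0 and, unlike the others, was close between the fractions of day 16 at 14.1 and 13.2 FPKM. Ifih1, the long double-stranded RNA sensor MDA5, ranged from 0.0255 in mESCs to 5.58 in D0. Tlr3, the endosomal receptor for double-stranded RNA, was at or below 0.252 FPKM throughout.

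Oligoadenylate synthetases make the messenger that activates RNase L, and this group contained members whose course differed from the common one. Oas2 (chr5:121180342-121199862, minus strand) was at 2.45 FPKM in D0 and 0.338 in D3, 12.0 in D6T- and 7.16 in D6T+, 53.0 in D9T- and 36.8 in D9T+, 48.9 in D12S+ and 92.1 in D12S-, 18.6 in D16S+ and 50.5 in D16S-, and 1.88 in iPSCs and 2.09 in mESCs. It was low in MEFs, above D0 in all 8 sorted libraries, and higher in the Thy-1- fraction than in the Thy-1+ fraction on days 6 and 9. Oasl2, an OAS-like protein (chr5:115346943-115362243, plus strand), was at 37.8 FPKM in D0 and 0.370 in D3, 4.61 in D6T- and 13.0 in D6T+, 24.0 in D9T- and 33.1 in D9T+, 31.9 in D12S+ and 58.7 in D12S-, 27.7 in D16S+ and 66.0 in D16S-, and 1.44 in iPSCs and 0.193 in mESCs. Its D3 and mESCs levels were below 1 FPKM, and D12S- and D16S- lay above D0. Oas3 also had a low D0 value of 2.22 FPKM and ranged from 0.208 in D3 to 35.2 in D16S-, whereas Oasl1, next to Oasl2, had its highest value in D0 and ranged from 0.446 in iPSCs to 36.1 in D0. Oas1a ranged from 1.78 in D3 to 28.8 in D12S-, and because it has close paralogs and reads with several loci were removed, its level is uncertain. Eif2ak2, the kinase PKR that halts translation on double-stranded RNA, ranged from 2.44 in mESCs to 15.6 in D0.

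IFIT proteins bind viral RNA that lacks the host cap, and their 3 genes lie within a short stretch of chromosome 19. Ifit1 (chr19:34715361-34724499, plus strand) was at 18.0 FPKM in D0 and 0.321 in D3, 0.672 in D6T- and 3.90 in D6T+, 2.59 in D9T- and 7.81 in D9T+, 2.15 in D12S+ and 4.70 in D12S-, 1.56 in D16S+ and 8.81 in D16S-, and 0.152 in iPSCs and 0.0179 in mESCs. Ifit2 (chr19:34625184-34650909, plus strand) was at 12.9 FPKM in D0 and 2.60 in D3, 1.42 in D6T- and 8.59 in D6T+, 0.862 in D9T- and 4.84 in D9T+, 0.626 in D12S+ and 1.82 in D12S-, 0.464 in D16S+ and 3.35 in D16S-, and 0.143 in iPSCs and 0.199 in mESCs. Ifit3 (chr19:34658021-34663221, plus strand) was at 49.2 FPKM in D0 and 1.06 in D3, 1.65 in D6T- and 12.9 in D6T+, 2.85 in D9T- and 13.2 in D9T+, 2.99 in D12S+ and 7.36 in D12S-, 2.97 in D16S+ and 18.5 in D16S-, and 0.159 in iPSCs and a listed 0 in mESCs. In all 3 genes D0 was the highest library, no later library reached it, and the SSEA-1+ or Thy-1- fraction was the lower one on every sorted day. Ifit2 differed from its neighbours in that D6T- lay below D3. Ifit1 and Ifit3 have close relatives in the same cluster, and because reads with several loci were removed, their levels are uncertain.

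Mx proteins are dynamin-like GTPases, and Rsad2 encodes viperin, which makes a chain-terminating nucleotide with the help of its neighbour Cmpk2. All 4 genes were low. Rsad2 (chr12:27127618-27141317, minus strand) was at 4.69 FPKM in D0 and 0.110 in D3, 0.613 in D6T- and 1.14 in D6T+, 2.70 in D9T- and 5.76 in D9T+, 3.06 in D12S+ and 2.74 in D12S-, 4.28 in D16S+ and 7.32 in D16S-, and 0.437 in iPSCs and 0.0122 in mESCs. Cmpk2 (chr12:27154069-27164700, plus strand) was at 6.12 FPKM in D0 and 0.262 in D3, 0.936 in D6T- and 2.25 in D6T+, 2.14 in D9T- and 4.38 in D9T+, 1.36 in D12S+ and 2.12 in D12S-, 1.83 in D16S+ and 2.80 in D16S-, and 0.413 in iPSCs and 0.205 in mESCs. Although the genes adjoin, Rsad2 was highest in D16S- and Cmpk2 in D0, and only Rsad2 was slightly higher in D12S+ than in D12S-. Mx2 ranged from 0.0392 in mESCs to 4.28 in D0, and Mx1, of which many laboratory strains carry a defective allele, stayed at or below 0.869 FPKM.

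ISG15 is a ubiquitin-like protein that is attached to other proteins after interferon treatment. Isg15 (chr4:155573533-155574927, minus strand) was at 504 FPKM in D0 and 5.66 in D3, 11.1 in D6T- and 66.1 in D6T+, 64.9 in D9T- and 206 in D9T+, 91.0 in D12S+ and 178 in D12S-, 43.5 in D16S+ and 244 in D16S-, and 12.8 in iPSCs and 0.0744 in mESCs. It had the widest range of the 39 members, 8.88 on the log2(FPKM + 1) scale, and D0 was the highest of its 12 libraries by a factor of over 2. Usp18, which removes ISG15 and restrains the type I receptor (chr6:121195924-121220934, plus strand), was at 66.3 FPKM in D0 and 1.14 in D3, 2.07 in D6T- and 8.54 in D6T+, 7.07 in D9T- and 16.2 in D9T+, 12.6 in D12S+ and 23.8 in D12S-, 9.28 in D16S+ and 29.9 in D16S-, and 3.21 in iPSCs and 0.0550 in mESCs. Its order of libraries resembled that of Isg15, with D0 well above all others and mESCs near 0. Herc6, the mouse ligase for ISG15, ranged from a listed 0 in mESCs to 6.31 in D16S-. Trim25, the ubiquitin ligase that activates RIG-I, varied least of the kept members and ranged only from 21.1 in D3 to 61.3 in D9T+, with 36.8 FPKM in D0.

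**Figure D3:**
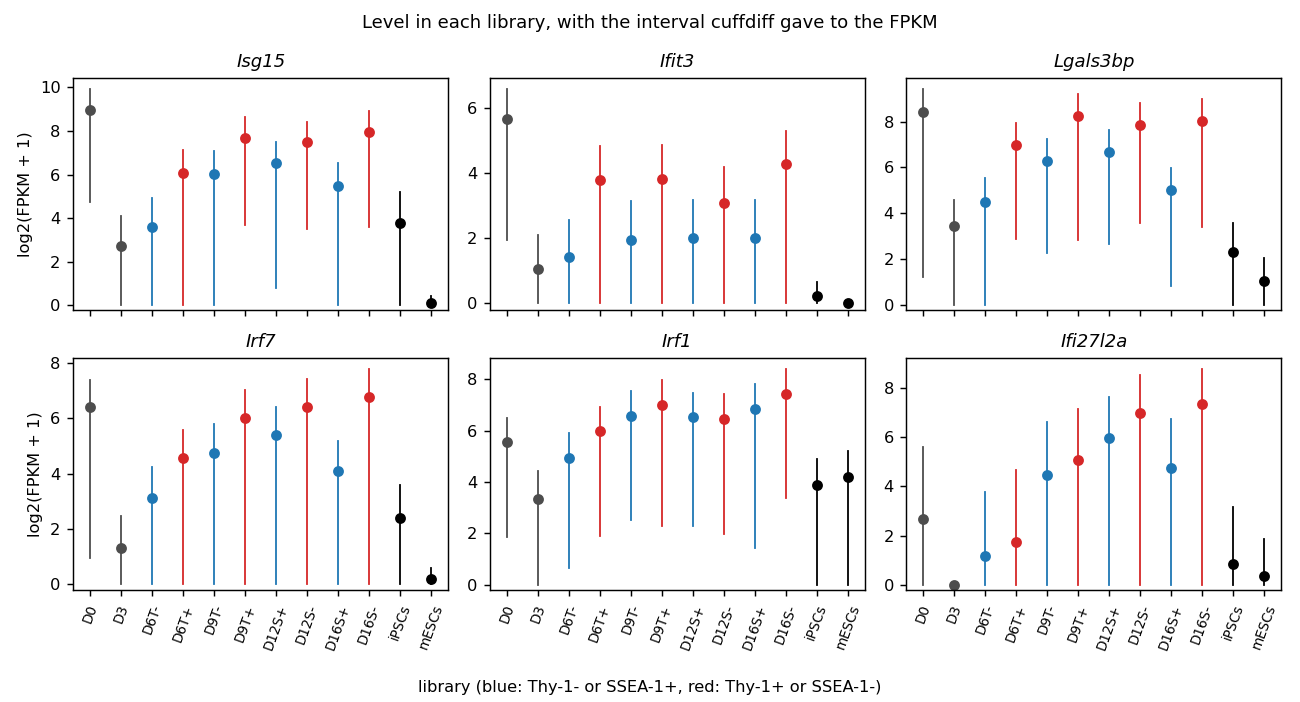
Level of 6 members in each library on the log2(FPKM + 1) scale (points) with the interval that cuffdiff gave to the FPKM (lines). Blue marks Thy-1- or SSEA-1+, red Thy-1+ or SSEA-1-, grey D0 and D3, and black the pluripotent cells. Of all 468 values of the 39 members, 364 have an interval that reaches down to 0, and Isg15 in D0 is among the few whose interval lies above that of D3.

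PARP9 and DTX3L form a ligase complex that marks chromatin and viral proteins, and PARP14 is a related ADP-ribosyltransferase. Parp9 (chr16:35938556-35972691, plus strand) was at 9.50 FPKM in D0 and 1.29 in D3, 4.98 in D6T- and 7.47 in D6T+, 14.3 in D9T- and 10.5 in D9T+, 8.57 in D12S+ and 12.9 in D12S-, 13.4 in D16S+ and 19.6 in D16S-, and 3.16 in iPSCs and 2.39 in mESCs. Dtx3l (chr16:35926597-35939237, minus strand) was at 5.63 FPKM in D0 and 1.53 in D3, 5.29 in D6T- and 5.34 in D6T+, 9.20 in D9T- and 8.11 in D9T+, 9.18 in D12S+ and 14.0 in D12S-, 10.9 in D16S+ and 19.2 in D16S-, and 2.30 in iPSCs and 2.53 in mESCs. These 2 genes share a locus on opposite strands, so their fragments may not have been separated fully, and both were slightly higher in D9T- than in D9T+. Parp14 (chr16:35832960-35871630, minus strand) was at 8.30 FPKM in D0 and 0.362 in D3, 1.67 in D6T- and 4.20 in D6T+, 4.23 in D9T- and 7.89 in D9T+, 4.32 in D12S+ and 7.89 in D12S-, 6.28 in D16S+ and 15.8 in D16S-, and 0.541 in iPSCs and 0.418 in mESCs. All 3 were lowest in D3 and highest in D16S-.

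The membrane restriction factors had the highest FPKM of all members. Bst2, or tetherin, which holds budding virions on the cell (chr8:74058163-74061336, minus strand), was at 582 FPKM in D0 and 30.6 in D3, 163 in D6T- and 174 in D6T+, 399 in D9T- and 559.8 in D9T+, 712 in D12S+ and 809 in D12S-, 518 in D16S+ and 1005 in D16S-, and 139 in iPSCs and 77.8 in mESCs. From day 12 it was above D0 in D12S+, D12S- and D16S-, while D6T- and D6T+ were nearly equal. Ifitm3, which blocks fusion of virions with endosomes (chr7:148195485-148196669, minus strand), was at 2716 FPKM in D0 and 569 in D3, 745 in D6T- and 1267 in D6T+, 1783 in D9T- and 2269 in D9T+, 1668 in D12S+ and 2416 in D12S-, 958 in D16S+ and 2425 in D16S-, and 341 in iPSCs and 258 in mESCs. It was highest in D0 and stayed at or above 258 FPKM in every library, and since the Ifitm genes are similar, its level is uncertain to the extent that reads with several loci were removed.

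Secreted members differed strongly between the fractions. Cxcl10, a chemokine for activated T cells (chr5:92775664-92777915, minus strand), was at 31.7 FPKM in D0 and 0.648 in D3, 1.24 in D6T- and 7.35 in D6T+, 6.46 in D9T- and 20.2 in D9T+, 4.01 in D12S+ and 5.96 in D12S-, 5.48 in D16S+ and 28.4 in D16S-, and 0.577 in iPSCs and 0.330 in mESCs. Its locus lies within Art3 on the other strand. Lgals3bp, a secreted galectin-binding glycoprotein (chr11:118254065-118263406, minus strand), was at 346 FPKM in D0 and 9.84 in D3, 21.4 in D6T- and 125 in D6T+, 76.4 in D9T- and 300.3 in D9T+, 102 in D12S+ and 227 in D12S-, 31.1 in D16S+ and 257 in D16S-, and 3.91 in iPSCs and 1.04 in mESCs. On every sorted day D0 was above both fractions for these 2 genes, and the Thy-1+ or SSEA-1- fraction was above its partner.

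Other induced proteins ranged from near 0 to over 100 FPKM. Ifi27l2a, a small mitochondrial and membrane protein (chr12:104680377-104681890, minus strand), was at 5.42 FPKM in D0 and a listed 0 in D3, 1.24 in D6T- and 2.32 in D6T+, 21.0 in D9T- and 32.4 in D9T+, 60.9 in D12S+ and 126 in D12S-, 26.2 in D16S+ and 159 in D16S-, and 0.822 in iPSCs and 0.293 in mESCs. From day 9 it was above D0 in all 6 sorted libraries, and D12S- and D16S- had the 2 highest values. It overlaps Ifi27l2b on the same strand, which leaves its level uncertain. Rtp4, a chaperone of cell-surface receptors (chr16:23610005-23614308, plus strand), was at 38.0 FPKM in D0 and 0.324 in D3, 3.14 in D6T- and 9.37 in D6T+, 13.5 in D9T- and 21.0 in D9T+, 16.2 in D12S+ and 29.5 in D12S-, 14.3 in D16S+ and 32.7 in D16S-, and 0.856 in iPSCs and a listed 0 in mESCs. Ifi35, Xaf1 and Ifi44 ranged from 7.57 in mESCs to 82.6 in D16S-, from 1.72 in iPSCs to 30.6 in D16S- and from a listed 0 in mESCs to 4.74 in D16S-, and Samd9l was at or below 0.627 FPKM.

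The first comparison asked how the genes differed between MEFs and day 3 of OSKM induction. On the log2(FPKM + 1) scale, 35 of the 36 kept members were at least 2-fold lower in D3 than in D0 and none was 2-fold higher, and the median difference of D3 minus D0 was -2.55. Of all kept genes 8.67% were at least 2-fold lower and 5.76% higher, with a median of -0.02. The kept members had all passed 1 FPKM in D0 itself, where their median was high at 19.5 FPKM, so these counts are descriptions. The difference was -6.25 for Isg15, -5.07 for Irf7, -5.00 for Lgals3bp, -4.98 for Usp18 and -4.88 for Rtp4. At the other end lay Trim25 at -0.77, Herc6 at -1.01, Oas2 at -1.37 and Dtx3l at -1.39. The intervals of cuffdiff lay apart for Isg15, Usp18 and Oasl2, all lower in D3, and over all kept genes for 7 lower, these 3 included, and 12 higher. The fibroblast genes were also lower in D3, with 11 of 12 at least 2-fold lower and a median of -2.16, and their part in the result was not tested. Of 7 kept leukocyte genes 3 were at least 2-fold lower in D3 and 2 higher. Lyz2 was at 9.47 FPKM in D0 and 0.475 in D3, Tyrobp at 3.38 and 0.149 and Fcer1g at 1.84 and 0.183. Higher in D3 were Cd68, at 9.05 and 19.2, and Itgam, at 0.272 and 1.68. Sums over the whole list were 25.8 and 23.2, and Ptprc was at 0.0273 and 0.0244. The part of the leukocyte genes in the result was not tested either.

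The second question was how the fractions of a day compared. On day 6, 14 of the 36 kept members were at least 2-fold lower in D6T- than in D6T+ and none was higher, with a median of -0.91. Of all kept genes 9.47% were lower and 2.93% higher, with a median of 0.00. The 14 were Irf1, Irf7, Stat2, Dhx58, Oasl1, Oasl2, all 3 Ifit genes, Isg15, Usp18, Cxcl10, Lgals3bp and Rtp4, and the difference reached -2.50 for Lgals3bp and -2.47 for Isg15. Oas2 went the other way, by 0.67.

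On day 9 the difference was smaller. Of the kept members 10 were at least 2-fold lower in D9T- than in D9T+ and none was higher, with a median of -0.55, beside 6.45% lower and 1.81% higher of all kept genes and a median of 0.02. They were Irf7, Dhx58, Oasl1, the 3 Ifit genes, Isg15, Usp18, Cxcl10 and Lgals3bp, each of which had also been in the list for day 6. Lgals3bp differed by -1.96 and Ifit3 by -1.88, while Oas2, Parp9 and Dtx3l were higher in D9T- by 0.51, 0.41 and 0.16.

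On day 12, after the change of sorting marker, 5 kept members were at least 2-fold lower in D12S+ than in D12S- and none was higher. The 5 were Dhx58 at -1.16, Lgals3bp at -1.15, Ifit3 at -1.07, Oas3 at -1.04 and Ifi27l2a at -1.04, and Irf7 lay at the border. The median was -0.64, with 3.03% of all kept genes lower, 4.79% higher and a median of -0.01. Irf1 and Rsad2 were the 2 kept members higher in D12S+, by 0.06 and 0.12.

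On day 16 the fractions were farthest apart. At least 2-fold lower in D16S+ than in D16S- were 24 of the 36 kept members, none was higher, and the median was -1.29. Of all kept genes 15.2% were lower and 11.8% higher, with a median of -0.02. The difference was -3.01 for Lgals3bp, -2.65 for Irf7, -2.63 for Dhx58, -2.56 for Ifi27l2a and -2.46 for Isg15. Ddx58 was the only kept member not lower in D16S+, at 0.10. D16S+ lay below D12S+ and D9T- for Isg15, Irf7 and Lgals3bp, and for these 3 D16S- lay above D12S-.

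Across days, 30 of the 39 members were lower in the SSEA-1+ or Thy-1- fraction on all 4 sorted days, which is 76.9%, against 24.8% of all kept genes. The exceptions were Irf1, Ddx58, Tlr3, Oas2, Mx1, Rsad2, Parp9, Dtx3l and Samd9l. Tlr3, Mx1 and Samd9l were not kept, so the 39 and all kept genes are not counted on the same filter. This holds wherever a share of the 39 is set beside one of all kept genes. Dhx58, Ifit3 and Lgals3bp were at least 2-fold lower on each of the 4 days, as were 152 kept genes, or 1.07%. In no pair of fractions did the cuffdiff intervals of a member lie apart, nor did those of any kept gene on days 6, 9 and 12, and on day 16 they did for 2 genes. The fibroblast sums given above were lower in the same fraction on every day, and their part in the result was not tested. In D16S- the fibroblast sum was 499 FPKM, against 8103 in D0.

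**Figure D4:**
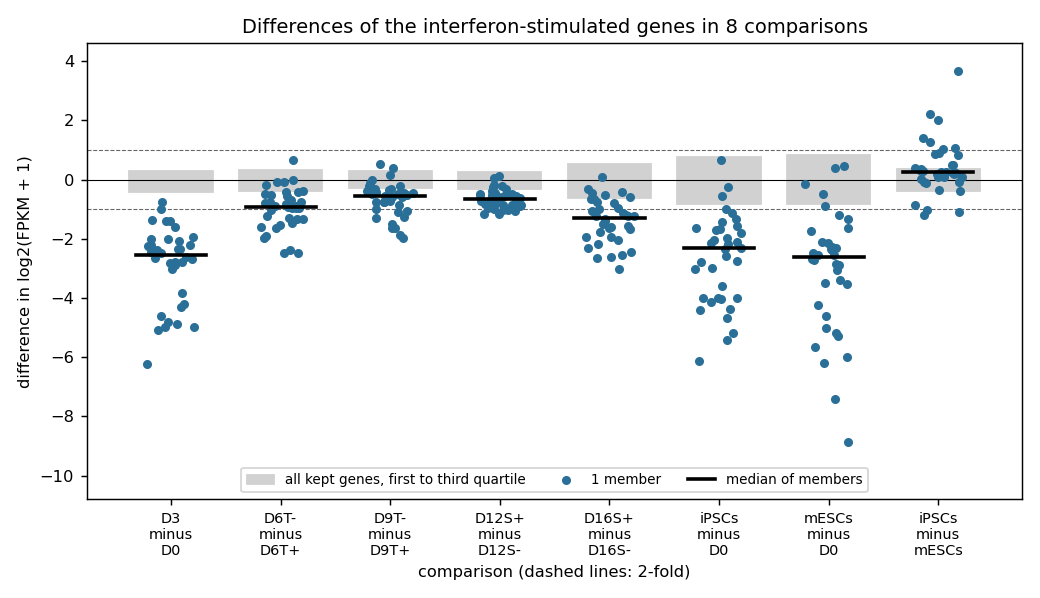
Difference in log2(FPKM + 1) of each of the 36 kept members (points) in the 8 comparisons, with the members' median (black bar), the range from the first to the third quartile of all kept genes (grey box) and dashed lines at 2-fold. The medians are -2.55 for D3 minus D0, -0.91, -0.55, -0.64 and -1.29 for the 4 sorted days, -2.32 and -2.62 for iPSCs and mESCs minus D0 and 0.24 for iPSCs minus mESCs.

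The SSEA-1- cells of day 16 were set against MEFs gene by gene, since these 2 libraries held most of the highest values. In D16S- 21 of the 39 members, or 53.8%, were above their D0 level, as were 49.1% of all kept genes, a share close to that of the members. At least 2-fold higher in D16S- were 8 members, namely Irf1, Dhx58, Zbp1, Oas2, Oas3, Herc6, Dtx3l and Ifi27l2a, beside 12.8% of all kept genes. At least 2-fold lower were 5, namely Oasl1, Ifit2, Ifit3, Isg15 and Usp18, beside 11.4% of all kept genes. Ifi27l2a was at 5.42 FPKM in D0 and 159 in D16S-, and Isg15 at 504 and 244. In D16S+ 8 members were above D0, namely Irf1, Zbp1, Oas2, Oas3, Trim25, Parp9, Dtx3l and Ifi27l2a, which is 20.5% of the 39 beside 51.7% of all kept genes. Cd68 and Csf1r were at 115 and 19.9 FPKM in D16S- and at 62.0 and 6.63 in D16S+, with Ptprc at 0.0269 and listed at 0, and their part in these differences was not tested.

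Pluripotent cells were then compared with MEFs. In iPSCs 33 of the 36 kept members were at least 2-fold lower than in D0, none was higher, and the median difference was -2.32, beside 21.6% lower and 18.7% higher of all kept genes and a median of 0.03. The exceptions were Oas2 at -0.26, Oas3 at -0.56 and Trim25 at 0.67. In mESCs 31 were at least 2-fold lower and none higher, with a median of -2.62, beside 21.9% lower, 20.7% higher and a median of 0.03. Here Stat2 at -0.48, Oas2 at -0.16, Oas3 at 0.46, Dtx3l at -0.91 and Trim25 at 0.40 stayed within 2-fold. Cuffdiff intervals lay apart for Ifit3 in iPSCs and for Irf7, Oasl2, Ifit3, Isg15, Usp18 and Rtp4 in mESCs, all below D0. Ifit3 and Rtp4 were listed at 0 in mESCs with an interval from 0 to 0, which lies apart from any interval above 0. The lower end of the D0 interval was 2.85 FPKM for Ifit3 and 0.181 for Rtp4. Over all kept genes they lay apart for 74 below and 66 above D0 in iPSCs, and for 106 below and 67 above in mESCs. These comparisons and that of D3 share the D0 library. As for D3, the kept members had all passed 1 FPKM in D0, where their median was high at 19.5 FPKM. The counts against D0 in this paragraph are therefore descriptions as well.

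Between iPSCs and mESCs 26 of the 36 kept members were within 2-fold. At least 2-fold higher in iPSCs were 7 and lower 3, with a median of 0.24, and of all kept genes 6.79% were higher and 7.41% lower, with a median of -0.01. The 7 were Isg15 at 3.68, Irf7 at 2.20, Usp18 at 2.00, Ddx58 at 1.42, Lgals3bp at 1.27, Zbp1 at 1.05 and Oasl2 at 1.03. The 3 were Oasl1 at -1.20, Stat2 at -1.09 and Oas3 at -1.02, and with libraries scaled to the same total FPKM 1 member was at least 2-fold lower. No cuffdiff intervals of members lay apart, nor did those of any kept gene. Isg15 was at 12.8 FPKM in iPSCs and 0.0744 in mESCs, and 5 members were listed at 0 in mESCs against 1 in iPSCs. Against the cells they adjoin in the course, 38 of the 39 members, or 97.4%, were lower in iPSCs than in D16S+, as were 51.3% of all kept genes.

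Upstream of the members, transcripts of the interferons themselves were near the floor. Of 21 interferon genes, 13 were listed at 0 in every library, none was kept, and their summed FPKM was at most 1.48, in D16S-. For comparison, 14178 of 24098 genes were kept, and how many of all genes were listed at 0 throughout was not counted. The Ifna genes have close paralogs, and because reads with several loci were removed, their levels are uncertain. A listed 0 therefore does not show that an Ifna transcript was absent. Ifnb1 was above 0 in D0 alone, at 0.150 FPKM. Ifng had its highest value of 0.959 in D16S-, followed by 0.449 in D9T+, and Ifnk its highest of 0.597 in D12S+. The others above 0 in some library were Ifna2, Ifnab, Ifne, Ifnz and Ifnl2, each at or below 0.181 FPKM.

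Of 6 interferon receptor genes 1 was at least 2-fold lower in D3 than in D0. Those lower in D6T-, D9T-, D12S+ and D16S+ than in their partners numbered 2, 1, 0 and 4. Of all kept genes 8.67% were lower in D3, and 9.47%, 6.45%, 3.03% and 15.2% in these pairs. No receptor gene was at least 2-fold higher in these comparisons, beside 5.76%, 2.93%, 1.81%, 4.79% and 11.8% of all kept genes. Counts over 6 genes are descriptions. Ifnar1, the shared chain for type I interferons, ranged from 6.63 in iPSCs to 15.5 in D0 FPKM and Ifnar2, its partner, from 7.81 in iPSCs to 37.1 in D9T+. Both differed from D0 to D3 by less than 2-fold, at -0.61 and -0.48. Ifngr2, the signalling chain for interferon gamma, differed by -1.32, from 57.0 to 22.3 FPKM, and Ifngr1, the binding chain, by -0.85. In the day 16 pair Ifnar2, Ifngr1, Ifngr2 and Il10rb were lower in D16S+ by 2-fold or more, at -1.60, -1.75, -1.38 and -2.03. Ifnlr1, the chain specific for lambda interferons, was highest in mESCs at 4.80 FPKM.

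Downstream of the receptors, the kinase genes Jak1, Jak2 and Tyk2 and the transcription factor gene Stat3 were within 2-fold between D0 and D3, at -0.15, -0.03, -0.29 and -0.57. Jak1 differed by -1.24 on day 6, lower in D6T-, and Stat3 by -1.38 on day 16, lower in D16S+. Among 10 kept sensing adaptors and kinases 2 were at least 2-fold lower in D3 and none was higher. Of all kept genes 8.67% were lower and 5.76% higher. The 2 were the adaptor Tmem173 (STING) at -1.96 and the kinase Ikbke at -2.11. Both were also lower in D6T-, at -1.10 and -2.43, and in D16S+, at -2.33 and -2.53, and Ikbke in D9T- at -1.97. Among the 4 pairs of fractions, Traf3, Ticam1 and Myd88 were at least 2-fold apart on day 16 only, lower in D16S+, at -1.41, -1.56 and -1.66.

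Among 10 negative regulators 2 were at least 2-fold lower in D3, beside 8.67% of all kept genes. They were Socs1, the inhibitor of Janus kinases, at -2.18 and Adar, which edits double-stranded RNA, at -1.48. Socs1 was also lower in D6T-, D9T- and D16S+, at -1.77, -1.65 and -1.33. Trex1, the exonuclease that clears cytosolic DNA, was lower in D6T- and D16S+, at -1.01 and -1.78, and Socs3, Irf2 and Samhd1 in D16S+, at -1.79, -1.94 and -1.13. The phosphatase gene Ptpn6 went the other way and was higher in D12S+ and D16S+, at 1.62 and 1.28.

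**Figure D5:**
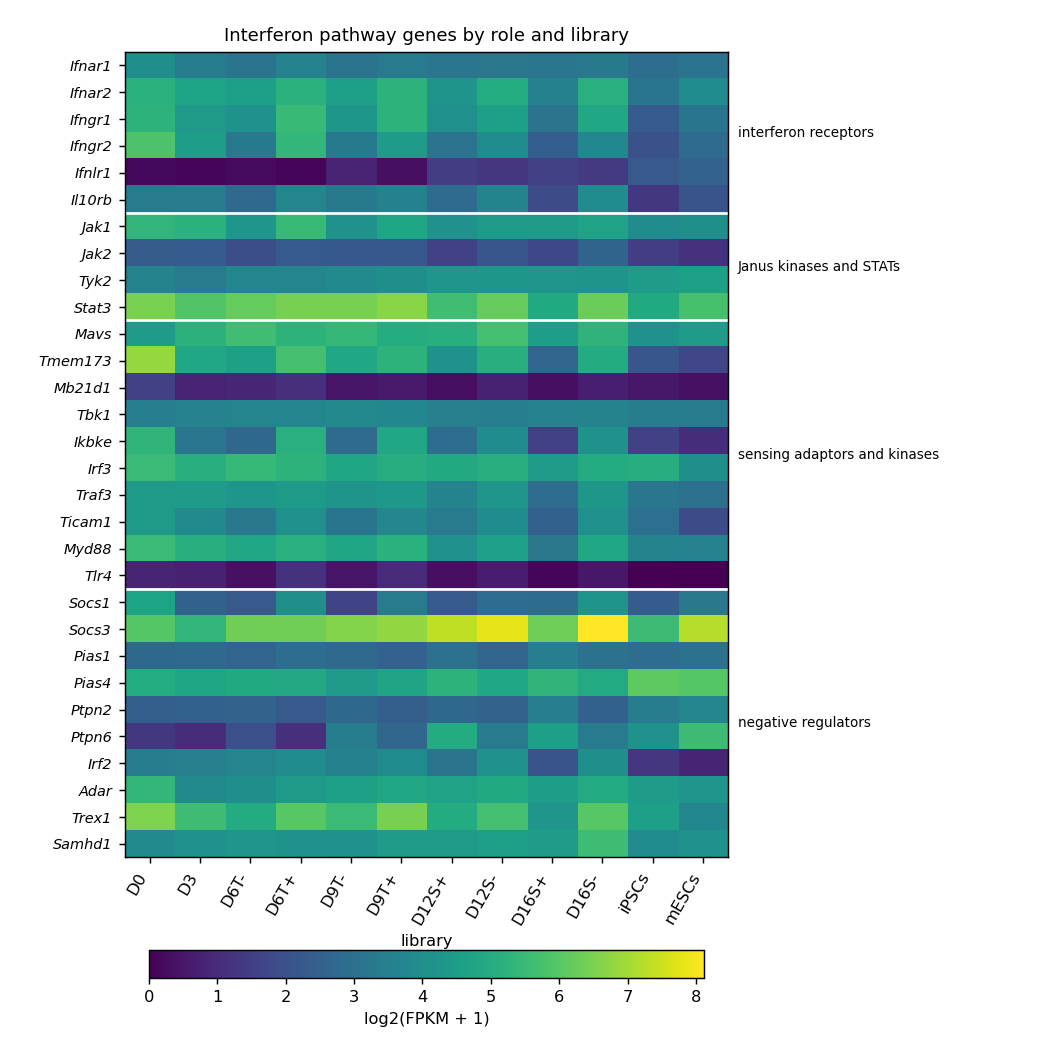
Level of kept receptor, kinase, adaptor and regulator genes of the interferon pathway (rows, grouped by role) in the 12 libraries (columns), coloured by log2(FPKM + 1). Ifngr2, Tmem173, Ikbke, Socs1 and Adar are darker in D3 than in D0, while most other rows change little between these 2 libraries.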

How the data were processed

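Polyadenylated RNA of 12 libraries, 1 for each condition, was analysed, with groups taken from the titles in the labels. Per the labels, libraries were made with the TruSeq Stranded mRNA LT kit, while the methods of the study name the TruSeq RNA Sample Prep kit. The authors mapped reads to mm9 with STAR, discarded reads with more than 2 mismatches or more than 1 locus, and estimated expression with Cuffdiff (tools and build also per the submitters' processing notes). Versions, the annotation, the use of strand and the library scaling were not given in the sources used here. The deposited values are FPKM by gene symbol, each with the interval that Cuffdiff modelled, which holds no replicate variation. An FPKM of 0 is written as listed at 0. Total fragments are unknown, so depth was given only relative to D0, from the most common ratio of low values (under 0.5 FPKM).

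Differences were computed on log2(FPKM + 1), which understates the change of low genes, over 14178 genes with at least 1 FPKM in at least 1 library, in Python 3.11.15 with pandas 2.3.3 and numpy 2.4.6. A 2-fold difference was counted in each direction, beside the same count over all kept genes. No test was made, since each condition had 1 library. The members and lists were chosen with earlier results of these data known. All 12 values were given for the 2 members of each role with the widest range, and for all members of roles with 2 or 3, and other members by their range. Receptors and ligands were named, as were other kept pathway genes past 2-fold between D0 and D3 or between fractions, except for a gene that is not reported here. Il28a, Il28b and Il28ra were found as Ifnl2, Ifnl3 and Ifnlr1 through RefSeq synonyms. The comparison of D16S- with D0 was added after the values had been seen. Alternatives were a pseudocount of 0.1, fold thresholds of 1.5 and 4, another filter or none, and 2 scalings. The functions were tested on simulated data.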

Additional observations from a re-analysis of the deposited data

How the results depend on the processing

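Of 40 alternative values of the members' median difference 37 moved by less than 1.5-fold and 3 by more, and of 80 counts of members 65 stayed within 1.5 times and 15 did not. No median and no direction reversed. With a pseudocount of 0.1 the median was -3.30 for D3 minus D0, -3.65 for iPSCs minus D0 and -3.96 for mESCs minus D0, the members lower in D6T- and in D12S+ numbered 23 and 10, and those higher in iPSCs than in mESCs 14. At a threshold of 4-fold the members lower in the SSEA-1+ or Thy-1- fraction numbered 3, 0, 0 and 8 on days 6, 9, 12 and 16, and between iPSCs and mESCs 2 were higher and 0 lower. At 1.5-fold 25, 17 and 20 members were lower on days 6, 9 and 12, and 1 was higher in D6T- and 1 in iPSCs against D0. For the other pseudocount, thresholds and scalings the share of all kept genes past the threshold was not counted, so these counts are descriptions. With total FPKM made equal across libraries, 1 member was lower in iPSCs than in mESCs, with 7 higher as before, and the median of all kept genes shifted by 0.14 for D3 minus D0 and by 0.15 for iPSCs minus D0. The median-of-ratios scaling moved no count past this margin, and the filter at 5 FPKM or its absence moved no median. No paired analysis was possible because the conditions compared had 1 library each, and for the same reason no library could be left out. A fit with the 4 sorted days as blocks, which would treat different days and 2 sorting markers as replicates, was not run. Low members such as Mx2, Ifi44 and Cmpk2 rest on few fragments, and in D3 and the pluripotent cells many members lie near the floor, where the log2(FPKM + 1) scale compresses differences.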

Other observations

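Among other gene groups known to respond to interferon, 11 interferon-inducible GTPases and 12 genes of MHC class I antigen presentation were also lower in D3 than in D0 and were far apart between the fractions of day 16, with medians of -2.34 and -2.30 for D16S+ minus D16S- beside -1.29 for the members. The summed FPKM of the GTPase genes, whose products attack the vacuoles of intracellular pathogens, was 145 in D0, 13.4 in D3, 452 in D9T+ and 1138 in D16S-, against 214 in D16S+ and 8.04 in iPSCs. All 11 were at least 2-fold lower in D16S+ than in D16S-, and 7 of 11 were so in D3 against D0. Of the 12 antigen presentation genes 10 and 7 were so, beside 15.2% and 8.67% of all kept genes. The median for D3 minus D0 was -1.54 for the GTPase genes and -1.31 for the antigen presentation genes, beside -2.55 for the members. Igtp was at 30.0 FPKM in D0, 0.836 in D3 and 376 in D16S-, and Gbp2 at 12.9, 3.78 and 353. The summed FPKM of the antigen presentation genes was 699.8 in D0, 294 in D3, 754 in D16S+ and 3778 in D16S-, and the immunoproteasome gene Psmb8 was at 37.3, 1.40, 80.6 and 398. D16S- was the library with the highest sum for both lists. Of the 39 members 17 were highest in D16S- and 17 in D0, counts that were not made over all kept genes. Whether the lists differ from the members beyond the spread between cultures was not tested.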
